A study of Mus musculus with 6 samples.

Results

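The genes described here are 30 genes of cholesterol and fatty acid synthesis in mouse induced pluripotent stem cells (iPSCs), compared between miR-34a-/- and wild-type lines. They were chosen by gene symbol, from a list drawn up with earlier results of these data known, and not by their fold change. The list holds 4 regulators, 17 enzymes of sterol synthesis, 1 sterol transport protein and 8 enzymes of fatty acid synthesis. All 30 were found among the 41388 genes of the deposited count table, and all 30 were among the 14717 genes that passed the filter on low counts. Each group had 3 poly(A) RNA-seq libraries. The knockout group came from miR-34a-/- lines of strain C57BL/6 and the wild-type group from wild-type lines of the same strain. All lines of both groups were made from fibroblasts of embryos at day E13.5, taken from littermates, by retroviruses carrying Oct4, Sox2 and Klf4. Each line was grown from a picked colony on irradiated embryonic fibroblast feeders, which both groups therefore share. Which lines came from the same embryo is not given in the labels, so the p-values measure only the spread between these lines.

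Cells make cholesterol from acetyl-CoA through mevalonate, the isoprenoid farnesyl diphosphate and squalene, which is closed into lanosterol and then trimmed to cholesterol. Fatty acids also start from acetyl-CoA, which is made into malonyl-CoA, built into palmitate, and then elongated and desaturated. The SREBP transcription factors switch on both branches. SCAP carries their precursors out of the endoplasmic reticulum when sterols are low, and INSIG proteins hold them back when sterols are plentiful. In pluripotent cells, as in other dividing cells, both branches supply membranes.

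The knockout libraries held 20877988, 29654855 and 8721581 counts (replicates 1 to 3), and the wild-type libraries 25698286, 8432597 and 16760545. Levels are CPM (gene counts scaled to a common library size with TMM factors), and means are given ± SD over n = 3 lines per group. The lowest mean of a member over all libraries was 13.6 CPM (Tm7sf2), while 3 counts correspond to at most 0.375 CPM in the shallowest library. Depth therefore did not limit detection of any member. The labels could not be checked on the targeted gene, since the Mir34a row held 1 count for knockout replicate 1, 2 for wild-type replicate 1 and 0 for the other lines, and microRNA hairpins leave few reads in poly(A) libraries. The 10 markers of pluripotent cells were all measured. Pou5f1, which encodes the pluripotency factor Oct4, had 1245, 1212 and 1089 CPM in the knockout libraries against 938, 877 and 795 CPM in the wild-type libraries, and the viral Oct4 was mouse Oct4, so its reads may be included.

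The microRNA that the knockout removes has the mature sequence below, shown because its seed defines the sites looked for in the members. It is credited to RefSeq, GRCm38.p6 (the mm10 build), chr4:150068473-150068494, plus strand, with the seed at bases 2 to 8 in capitals.
mmu-miR-34a-5p: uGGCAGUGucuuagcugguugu
A match to the seed, CACTGCC, was present in the annotated 3′ UTR of 6 of the 30 members (20%), against 2271 of 13475 tested genes with a 3′ UTR (16.9%). The members' UTRs had a median length of 1549 bases, against 1106 bases over all of them. The UTR searched was that of the longest protein-coding transcript of each gene, and other transcripts were not searched. The members with a match are shown with the match in capitals, since they are the only ones with a site in the UTRs searched.
Fasn: tgcacgtgagcgagCACTGCCttcggttc
Scd1: caagactacctaccCACTGCCatgaaaac
Hsd17b7: aaagcatgcactacCACTGCCcggctact
Fdft1: tttaatggtgatccCACTGCCtcagcctt
Sc5d: gaggtgtgcaccacCACTGCCcagcttga
Dhcr7, the first of 2 matches: gaatattcagggggCACTGCCcactgcac
Scd1 has the only match followed by an A, the longer form of site. The log2 fold changes of these 6 members were 0.03 for Fasn, 0.16 for Scd1, -0.50 for Hsd17b7, 0.07 for Fdft1, -0.08 for Sc5d and -0.07 for Dhcr7. Their median was -0.02, against 0.02 for the members with no match, and the corresponding medians over all tested genes were 0.03 and 0.00. A match of this kind is a description of the letters in the UTR and does not show that the microRNA binds there.

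Taken gene by gene, the synthesis genes split, with some higher and some lower in the knockout lines and many not called. Of the 30 members, 8 were higher, 6 were lower and 16 were not called at the threshold of 0.05 on the adjusted p-value (quasi-likelihood test in edgeR, Benjamini-Hochberg over all genes tested). The 14 called members are 46.7% of the list, against 50.5% of all genes tested (26.5% higher and 24% lower), and against 55.2% of the 8741 genes with a mean of at least 10 CPM. The share of called members was thus near the background. The members that rose were Srebf1, Scap, Mvk, Tm7sf2, Nsdhl, Scd1, Fads1 and Fads2, and those that fell were Hmgcs1, Mvd, Idi1, Hsd17b7, Stard4 and Acaca. The median log2 fold change of the members was 0.02, against 0.01 for all genes tested. Their median absolute log2 fold change was 0.13, against 0.20 for genes with a mean of at least 10 CPM. No member changed by 2-fold or more, while 10.3% of all genes tested were called at that size. The groups did not overlap in 16 members, among them all 14 called ones, against 56% of all genes tested. In these bulk samples, fewer cells of a type and less RNA per cell cannot be told apart.

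**Figure D1:**
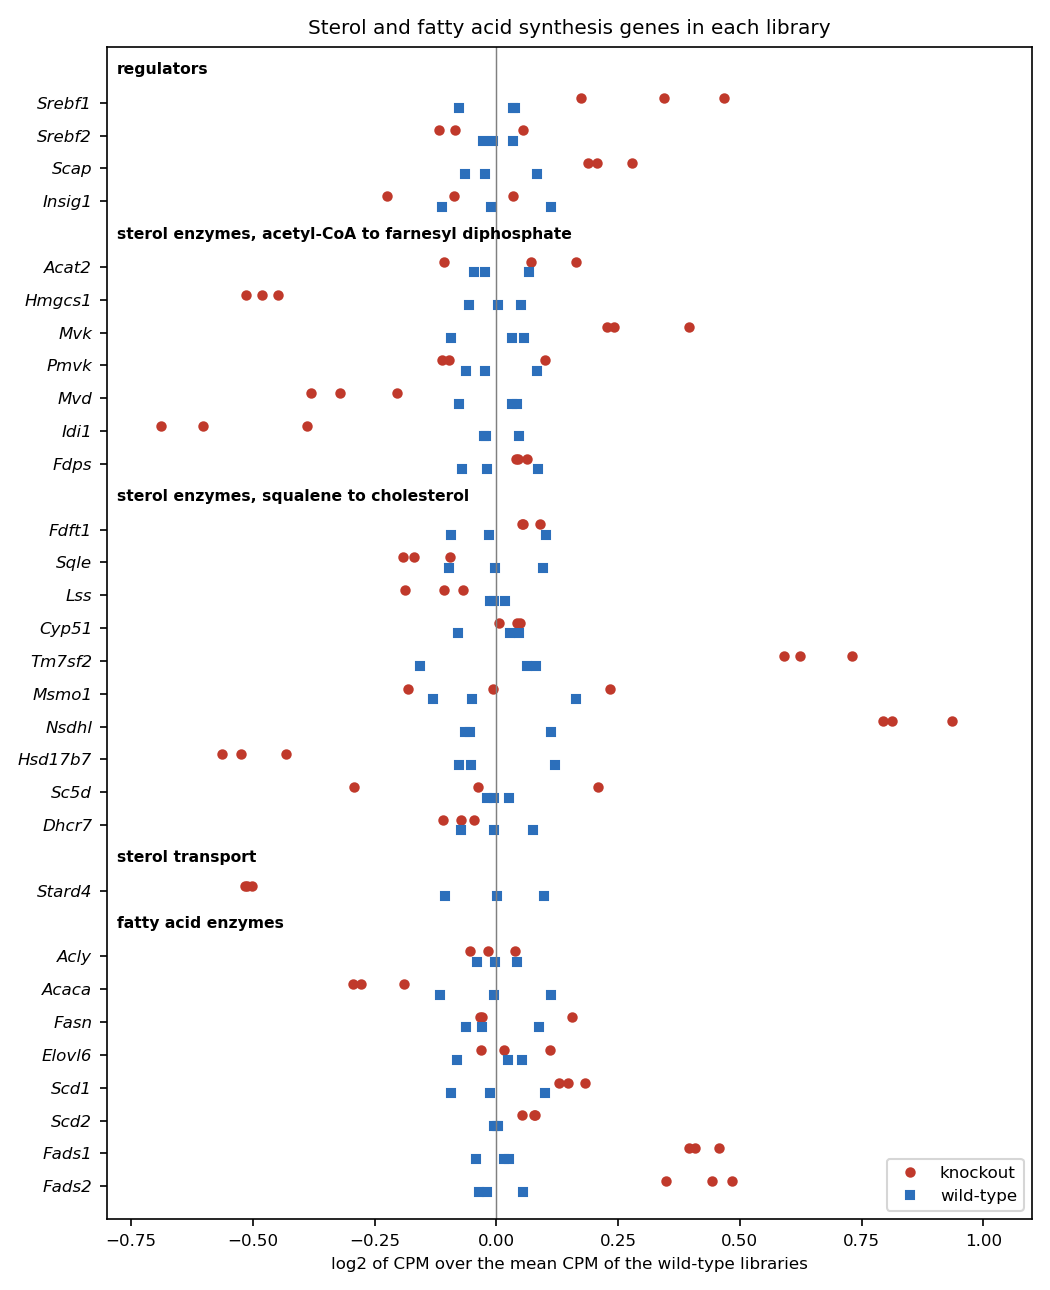
Each point is 1 library, plotted as log2 of its CPM over the mean CPM of the wild-type libraries, with knockout and wild-type libraries in different colours and the 30 genes in rows by role. Nsdhl (52.0 to 57.4 CPM in the knockout against 28.7 to 32.4 CPM in the wild-type) stands farthest to the right and Idi1 (30.9 to 38.1 against 49.0 to 51.5 CPM) farthest to the left.

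Among the regulators, Srebf1 rose and Srebf2 was not called. Srebf1 (ENSMUSG00000020538, chromosome 11, 60199089 to 60222581, mm10) encodes SREBP-1, whose main targets are fatty acid genes. It had 116, 106 and 94.4 CPM in the knockout libraries, against 85.7, 79.5 and 86.1 CPM in the wild-type libraries. Every knockout library was above every wild-type library, although knockout replicate 3 lay closest to them. The log2 fold change was 0.34 ± 0.068 (SE, n = 3 each, edgeR adjusted p = 0.00039). Srebf2, which encodes SREBP-2, the main activator of sterol genes, had 364, 330 and 323 CPM in the knockout libraries against 359, 344 and 349 CPM in the wild-type libraries, and the groups overlapped. Its log2 fold change was -0.05 ± 0.055 (SE, edgeR adjusted p = 0.5). The log2 ratio of Srebf1 CPM to Srebf2 CPM within a library was -1.69 ± 0.076 in the knockout lines and -2.07 ± 0.048 in the wild-type libraries (SD, n = 3 each). The ratio differed by 0.38 between the genotypes (exact permutation test, two-sided, p = 0.1, the smallest that 3 against 3 allows, and 0.3 adjusted over 3 pairs of paralogs).

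Scap, the sterol-sensing escort of the SREBPs, had 74.0, 70.4 and 69.6 CPM in the knockout libraries, against 64.6, 60.1 and 58.4 CPM in the wild-type libraries. The groups did not overlap, and the gene rose by 0.22 ± 0.062 on the log2 scale (SE, edgeR adjusted p = 0.0055). When the dependence of each library on GC content was removed, the difference was 0.12 and was no longer called (adjusted p = 0.081). Insig1, which retains the SCAP complex and is itself an SREBP target, had 124, 113 and 135 CPM in the knockout libraries, against 122, 131 and 143 CPM in the wild-type libraries. The groups overlapped, and the log2 fold change of -0.09 ± 0.069 was not called (SE, edgeR adjusted p = 0.27), although it was called lower without knockout replicate 3.

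In the first part of sterol synthesis, which runs from acetyl-CoA to farnesyl diphosphate, 3 of 7 enzymes fell, 1 rose and 3 were not called. These are 57.1% called, against 50.5% of all genes tested (26.5% higher and 24% lower), and with GC trends removed 57.1% against 47.6%. Hmgcs1 (ENSMUSG00000093930, chromosome 13, 119690379 to 119708260) encodes the synthase that makes HMG-CoA, the precursor of mevalonate. It had 205, 200 and 196 CPM in the knockout libraries against 269, 289 and 280 CPM in the wild-type libraries. The highest knockout library was well under the lowest wild-type library, and the knockout libraries were close to each other. The log2 fold change was -0.48 ± 0.051 (SE, n = 3 each, edgeR adjusted p = 2.7e-07). Idi1 (ENSMUSG00000058258, chromosome 13, 8885501 to 8892451), the isomerase that interconverts the 5-carbon isoprenoid units, had 30.9, 32.9 and 38.1 CPM in the knockout libraries against 49.0, 49.1 and 51.5 CPM in the wild-type libraries. Here too the groups did not overlap, and knockout replicate 3 was the nearest to the wild-type lines. Idi1 fell by 0.58 ± 0.074 on the log2 scale (SE, edgeR adjusted p = 2.7e-06). Of its 50-base stretches, 78.7% were unique among annotated transcripts, and most of the others were shared with Gm13502. Mvd (ENSMUSG00000006517, chromosome 8, 122433601 to 122443422), the decarboxylase that makes the first of those isoprenoid units, had 57.0, 52.6 and 50.5 CPM in the knockout libraries against 62.2, 67.6 and 67.1 CPM in the wild-type libraries. Its groups were apart as well, and its log2 fold change was -0.29 ± 0.065 (SE, edgeR adjusted p = 0.0011).

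The promoters of these 3 enzymes are shown because all 3 fell and because their control by sterols is the best known feature of the pathway. Each window holds 250 bases before and 50 after the start of the transcript in RefSeq (GRCm38.p6). Capitals mark matches, on either strand, to a sterol regulatory element written as TCACNCCAC and to CCAAT, the core of the element bound by NF-Y, which acts with SREBPs at many sterol genes. The windows lie at chr13:119690101-119690400 (plus strand) for Hmgcs1, chr13:8885356-8885655 (plus strand) for Idi1 and chr8:122443373-122443672 (minus strand) for Mvd.
Hmgcs1: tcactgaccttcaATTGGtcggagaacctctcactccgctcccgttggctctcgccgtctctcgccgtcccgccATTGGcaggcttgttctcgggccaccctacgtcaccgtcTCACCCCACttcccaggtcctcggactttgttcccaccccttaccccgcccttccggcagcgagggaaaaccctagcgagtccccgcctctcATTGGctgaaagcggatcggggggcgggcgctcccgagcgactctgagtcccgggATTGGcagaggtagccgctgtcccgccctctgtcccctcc
Idi1: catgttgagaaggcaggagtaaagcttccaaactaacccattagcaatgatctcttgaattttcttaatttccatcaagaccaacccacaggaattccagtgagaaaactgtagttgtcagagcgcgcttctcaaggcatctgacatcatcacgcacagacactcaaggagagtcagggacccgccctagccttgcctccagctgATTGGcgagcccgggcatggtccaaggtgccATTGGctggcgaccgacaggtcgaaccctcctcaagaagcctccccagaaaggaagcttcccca
Mvd: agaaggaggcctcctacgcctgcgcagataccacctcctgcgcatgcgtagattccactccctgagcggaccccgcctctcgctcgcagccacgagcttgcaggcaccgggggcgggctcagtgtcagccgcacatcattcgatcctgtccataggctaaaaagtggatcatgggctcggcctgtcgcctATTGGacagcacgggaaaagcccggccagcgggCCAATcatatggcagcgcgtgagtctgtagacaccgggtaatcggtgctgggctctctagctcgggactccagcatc
The Hmgcs1 window held the sterol element 137 bases before the start and 4 CCAAT matches. The Idi1 and Mvd windows held 2 CCAAT matches each and no match to these letters of the sterol element. Of the 23 members with a window, 1 held the sterol element (4.35%), against 388 of 27025 genes (1.44%) and 161 of the 10902 tested genes with a window (1.48%). CCAAT was found in 18 of the 23 members (78.3%), against 41.1% of all genes with a window and 43.0% of the tested ones. Members that rose, such as Srebf1, Mvk, Tm7sf2 and Nsdhl, are among the 18, as are members that were not called, such as Fasn, Acly and Cyp51. Windows of Fads1, Fdft1, Fdps, Scd1, Scd2, Sqle and Stard4 were not analysed here.

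The remaining enzymes of the first part did not fall. Mvk, the kinase that phosphorylates mevalonate, had 32.9, 36.6 and 32.6 CPM in the knockout libraries against 29.0, 26.1 and 28.5 CPM in the wild-type libraries. It was higher in all 3 knockout libraries, with a log2 fold change of 0.29 ± 0.075 (SE, edgeR adjusted p = 0.0033). Pmvk, the next kinase, averaged 33.1 ± 2.78 CPM in the knockout lines and 33.9 ± 1.78 CPM in the wild-type lines and was not called (log2 difference -0.02 ± 0.076 SE, edgeR adjusted p = 0.87). Acat2, the cytosolic thiolase that joins acetyl-CoA units, averaged 75.9 ± 7.16 and 73.4 ± 3.11 CPM in knockout and wild-type lines (edgeR adjusted p = 0.72). Fdps, which makes farnesyl diphosphate, averaged 194 ± 1.62 and 188 ± 10.5 CPM in knockout and wild-type lines (edgeR adjusted p = 0.47). The values of Acat2 and Fdps are uncertain, because only 54.1% of the 50-base stretches of Acat2 and 13.6% of those of Fdps were unique among annotated transcripts, and exons of Gm43738 overlap 26.7% of the Fdps exon bases on the same strand. Acat2 shares most with Acat3, which is among the counted genes, while the gene that Fdps shares most with is not.

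In the second part of sterol synthesis, from squalene to cholesterol, 2 of 10 enzymes rose, 1 fell and 7 were not called. These are 30% called, against 50.5% of all genes tested, and with GC trends removed 50% against 47.6%. Nsdhl (ENSMUSG00000031349, chromosome X, 72918557 to 72958514), a dehydrogenase that takes part in removing the methyl groups at carbon 4 of the sterol, had the largest change among the 30 members. It had 52.8, 52.0 and 57.4 CPM in the knockout libraries against 28.9, 28.7 and 32.4 CPM in the wild-type libraries. The groups were far apart relative to the spread within each, and the log2 fold change was 0.84 ± 0.071 (SE, n = 3 each, edgeR adjusted p = 1.1e-08). Nsdhl is the only member on the X chromosome, where the genotypes differed broadly. Of 512 tested X-linked genes 54.3% were higher and 14.8% lower, with a median log2 fold change of 0.37, against 25.5% and 24.3% and a median of 0.00 for 14105 autosomal genes. Within 5 Mb of Nsdhl, 61 of 73 tested genes were higher, with a median of 0.82, close to the value of Nsdhl itself. The part of this regional difference in the result for Nsdhl was not tested.

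Tm7sf2 (ENSMUSG00000024799, chromosome 19, 6062821 to 6068373), a sterol C14 reductase, had 16.4, 16 and 17.6 CPM in the knockout libraries against 11.1, 11.2 and 9.53 CPM in the wild-type libraries. All knockout libraries were above all wild-type libraries, and the gene rose by 0.64 ± 0.101 on the log2 scale (SE, edgeR adjusted p = 3.2e-05). Exons of Vps51 overlap 12.1% of its exon bases on the same strand. Hsd17b7 (ENSMUSG00000026675, chromosome 1, 169949535 to 169969241), the ketoreductase of the same demethylation complex as NSDHL, went the other way, with 11.7, 12.1 and 12.9 CPM in the knockout libraries against 16.5, 18.9 and 16.7 CPM in the wild-type libraries. The groups did not overlap and it fell by 0.50 ± 0.096 on the log2 scale (SE, edgeR adjusted p = 0.00025). Msmo1, the oxidase that acts before these enzymes on the same methyl groups, averaged 33.3 ± 4.84 CPM in the knockout lines and 32.7 ± 3.53 CPM in the wild-type lines and was not called (edgeR adjusted p = 1). Nsdhl, Hsd17b7 and Msmo1 thus gave a higher, a lower and an uncalled value.

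Sqle, the squalene epoxidase that is a rate-controlling step of the pathway, had 87.6, 92.1 and 86.2 CPM in the knockout libraries against 92.0, 98.2 and 105 CPM in the wild-type libraries. Knockout replicate 2 was level with wild-type replicate 1, the log2 fold change was -0.15 ± 0.061 (SE), and the edgeR adjusted p was 0.053, just outside the threshold. Without wild-type replicate 1 it was called lower. Lss, which closes squalene epoxide into lanosterol, had 88.8, 81.7 and 86.5 CPM in the knockout libraries against 92.3, 94.2 and 92.8 CPM in the wild-type libraries. Its groups did not overlap, although the log2 fold change of -0.12 ± 0.057 was not called (edgeR adjusted p = 0.082). Fdft1 (squalene synthase) and Cyp51 (the lanosterol 14-demethylase) had log2 fold changes of 0.07 and 0.03, and Sc5d and Dhcr7, which carry out late steps, of -0.08 and -0.07. None of these 4 was called, with edgeR adjusted p between 0.34 and 0.64. On the opposite strand, exons of Ctsb overlap 18.3% of the Fdft1 exon bases, those of Gm48342 12.1% of the Hmgcs1 exon bases and those of 5830462I19Rik 13.2% of the Scap exon bases, and the strand setting of the counting was not given in the sources used here.

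Stard4, a soluble carrier that moves cholesterol between membranes, had 12.3, 12.3 and 12.4 CPM in the knockout libraries against 17.5, 18.7 and 16.3 CPM in the wild-type libraries. The knockout libraries were almost level and all below the wild-type libraries. It fell by 0.50 ± 0.093 on the log2 scale (SE, edgeR adjusted p = 0.00019), a size close to those of Hmgcs1 and Hsd17b7.

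Of the 8 fatty acid enzymes, 3 rose, 1 fell and 4 were not called, and the 3 that rose were all desaturases. The 50% called is near the 50.5% of all genes tested. Fads1 (ENSMUSG00000010663, chromosome 19, 10182888 to 10196877) encodes the delta-5 desaturase of polyunsaturated fatty acids. It had 80.8, 80.1 and 83.7 CPM in the knockout libraries against 61.6, 59.2 and 62.1 CPM in the wild-type libraries. Fads2 (ENSMUSG00000024665, chromosome 19, 10062765 to 10101746), its neighbour on the chromosome, encodes the delta-6 desaturase and had 65.6, 67.6 and 61.5 CPM in the knockout libraries against 47.6, 47.1 and 50.1 CPM in the wild-type libraries. Neither gene's groups overlapped, and the spread within each group was small beside the gap. The log2 fold changes were 0.41 ± 0.058 for Fads1 (SE, edgeR adjusted p = 7.9e-06) and 0.43 ± 0.062 for Fads2 (SE, edgeR adjusted p = 1.2e-05). The log2 ratio of Fads1 to Fads2 within a library was 0.33 ± 0.103 in the knockout lines and 0.34 ± 0.032 in the wild-type lines (SD, n = 3 each), a difference of -0.01 (exact permutation test, two-sided, p = 0.9, also 0.9 adjusted over 3 pairs).

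Scd1, a delta-9 desaturase that makes monounsaturated fatty acids, had 99.6, 103 and 101 CPM in the knockout libraries against 85.4, 90.3 and 97.6 CPM in the wild-type libraries. The groups did not overlap, but wild-type replicate 3 came close to the knockout lines. Its log2 fold change of 0.16 ± 0.060 was just past the threshold (SE, edgeR adjusted p = 0.036), and the call was lost when knockout replicate 1 or 2 or wild-type replicate 1 or 2 was left out. Scd2, another delta-9 desaturase, had 363, 370 and 369 CPM in the knockout libraries against 350, 350 and 349 CPM in the wild-type libraries. Its groups did not overlap, yet the log2 fold change of 0.07 ± 0.049 was not called (SE, edgeR adjusted p = 0.24). The log2 ratio of Scd1 to Scd2 was -1.86 ± 0.018 in the knockout lines and -1.94 ± 0.1 in the wild-type lines, a difference of 0.08 (exact permutation test, two-sided, p = 0.4, or 0.6 adjusted over 3 pairs).

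**Figure D2:**
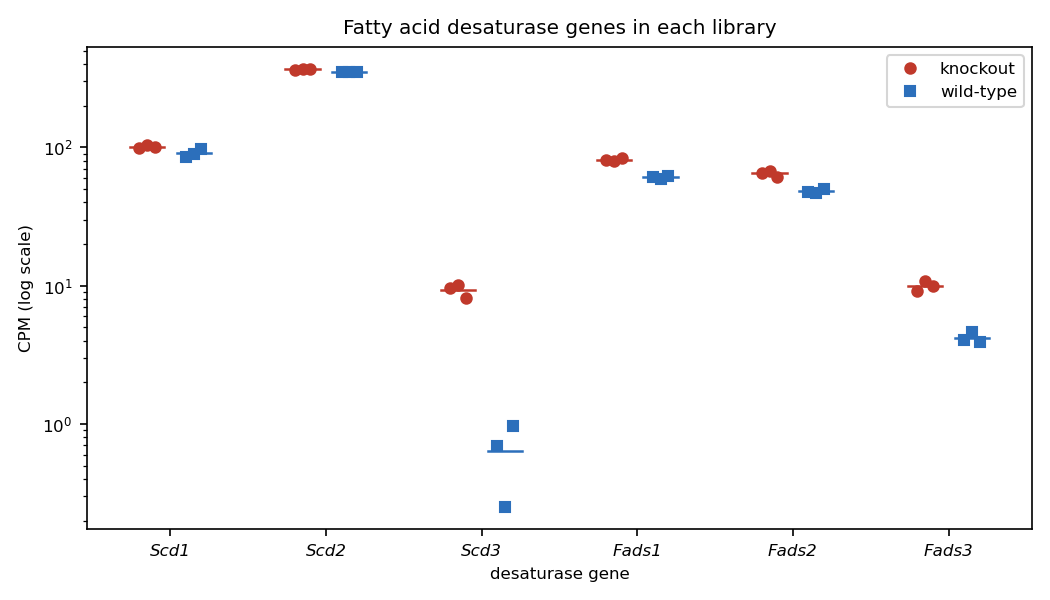
CPM on a log scale of 6 fatty acid desaturase genes, with 1 point per library, knockout libraries at the left of each pair, wild-type libraries at the right and a line at each mean. Fads1, Fads2, Fads3 and Scd3 are separated between genotypes, Scd1 (99.6 to 103 CPM in the knockout against 85.4 to 97.6 CPM in the wild-type) and Scd2 by much less.

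Of the enzymes that build palmitate, Acaca was the only member to fall. Acaca (ENSMUSG00000020532, chromosome 11, 84129672 to 84401651) encodes the acetyl-CoA carboxylase that makes malonyl-CoA for synthesis. It had 158, 149 and 147 CPM in the knockout libraries against 195, 180 and 167 CPM in the wild-type libraries. The groups did not overlap and the log2 fold change was -0.25 ± 0.060 (SE, n = 3 each, edgeR adjusted p = 0.0016). Only 47.4% of its 50-base stretches were unique among annotated transcripts, so its level is uncertain. The gene that shared most of the others is not among the counted genes, and how shared reads were counted is not known. Fasn, the fatty acid synthase, had 1198, 1052 and 1055 CPM in the knockout libraries against 1143, 1055 and 1030 CPM in the wild-type libraries. The libraries were interleaved, and the log2 fold change was 0.03 ± 0.062 (SE, edgeR adjusted p = 0.68). Acly, which makes cytosolic acetyl-CoA from citrate for both branches, averaged 618 ± 20 CPM in the knockout lines and 622 ± 17.5 CPM in wild-type lines, and its log2 fold change was -0.01 ± 0.053 (SE, edgeR adjusted p = 0.89). Elovl6, which elongates palmitate, averaged 144 ± 7.19 and 141 ± 6.84 CPM in knockout and wild-type lines and was not called (log2 fold change 0.04 ± 0.056 SE, edgeR adjusted p = 0.6).

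Set side by side, both the sterol and the fatty acid enzymes held genes that rose and genes that fell, and no score over either group was tested. Of the 17 sterol enzymes 3 rose, 4 fell and 10 were not called (41.2% called), with a median log2 fold change of -0.02. The 16 autosomal ones had a median of -0.04. Of the 8 fatty acid enzymes 50% were called, with a median of 0.05. Both shares are near the 50.5% of all genes tested, and the difference between the medians was -0.07. With library GC trends removed 52.9% of the sterol and 62.5% of the fatty acid enzymes were called, against 47.6% of all genes in that fit, with medians of -0.03 and 0.15 and a difference of -0.18. The summed level of the sterol enzymes was 1240 ± 15.3 CPM in the knockout lines and 1319 ± 41.1 CPM in the wild-type lines (SD, n = 3 each). By library it was 1244, 1223 and 1252 CPM in the knockout against 1273, 1331 and 1353 CPM in the wild-type libraries, without overlap. In the first part of the pathway the sums were 633, 615 and 627 CPM in the knockout libraries against 698, 726 and 730 CPM in the wild-type libraries, with no overlap. Hmgcs1, one of the enzymes in that sum, stood at 200 ± 4.61 CPM in the knockout against 279 ± 10.5 CPM in the wild-type lines. In the second part the sums were 611, 608 and 626 CPM in the knockout libraries against 575, 605 and 623 CPM in the wild-type libraries, and the groups overlapped. The fatty acid sums were 2746, 2573 and 2570 CPM in the knockout libraries against 2666, 2549 and 2494 CPM in the wild-type libraries, also overlapping. Fasn made up 41.9% of the fatty acid sum in each genotype. The ratio of the sterol sum to the fatty acid sum was 0.453, 0.475 and 0.487 in the knockout libraries against 0.478, 0.522 and 0.543 in the wild-type libraries, so the groups overlapped here as well. All 30 members together summed to 4522 ± 138 CPM in the knockout lines and 4534 ± 48.2 CPM in the wild-type lines (SD, n = 3 each).

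**Figure D3:**
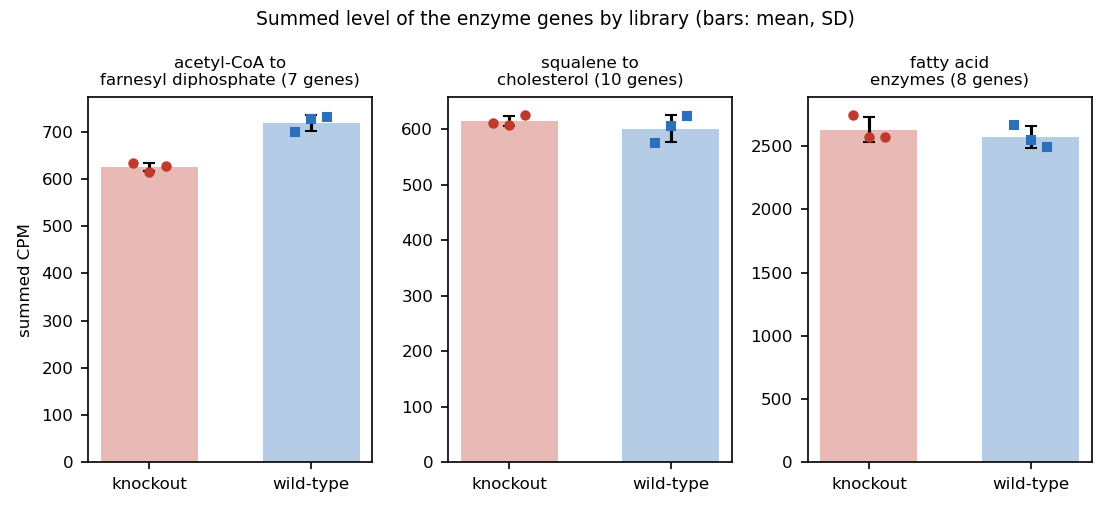
Summed CPM of the sterol enzymes of the first part, the sterol enzymes of the second part and the fatty acid enzymes, with 1 point per library, knockout left and wild-type right, and bars for the mean and SD (n = 3). Of the sums shown, only that of the first part separates the groups. It was 615 to 633 CPM in the knockout against 698 to 730 CPM in the wild-type libraries.

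To compare levels between genes, CPM was divided by the length of the longest protein-coding transcript in kilobases. On this scale Acly, Fdps and Fasn were the most abundant members, at 140, 141 and 110 CPM per kilobase in the knockout lines and 141, 136 and 107 CPM per kilobase in the wild-type lines. The place of Fdps is uncertain, since only 13.6% of its 50-base stretches were unique among annotated transcripts. Hmgcs1 came next among the enzymes of wild-type lines, at 57.8 CPM per kilobase in the knockout against 80.6 in the wild-type lines. In the knockout lines its level was below those of the regulator Srebf2 (66.8 CPM per kilobase) and of Scd2 (67.3 CPM per kilobase), while in the wild-type lines it was above both (69.0 and 64.1 CPM per kilobase). The lowest members were Hsd17b7 (2.65 CPM per kilobase in the knockout lines and 3.76 in the wild-type), Sc5d (3.33 and 3.39) and Stard4 (2.41 and 3.44).

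Fold changes in these libraries followed the GC content of the transcripts, and the members' calls did so in part. Over genes with a mean of at least 5 CPM, the median log2 fold change went up with GC, being -0.25 in the decile at a median of 40.7% GC and 0.11 in that at 60.0%. The members that rose had a median GC content of 55.5%, those that fell 43.9% and those not called 50.7%. Idi1 and Hmgcs1, at 41.9% and 43.1% GC, had log2 fold changes of -0.58 and -0.48, where genes within 2 percentage points of their GC had medians of -0.21 and -0.18. Mvd went against the trend, since it fell by 0.29 on the log2 scale at 59.3% GC, where genes of like GC had a median of 0.09. Nsdhl did too, rising by 0.84 at 45.8% GC against a median of -0.12. When each library's GC trend was removed before the same edgeR test, 47.6% of all genes were called (26.8% higher and 20.8% lower), and 17 members were called, 9 higher and 8 lower (56.7%).

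The members called in both fits kept their direction, and most of the falls became smaller. With the GC trends removed, the log2 fold change was -0.29 for Hmgcs1 (edgeR adjusted p = 0.00024), -0.36 for Idi1 (0.00011), -0.39 for Mvd (2.7e-05), -0.32 for Hsd17b7 (0.0068), -0.32 for Stard4 (0.0065) and -0.22 for Acaca (0.0037). It was 0.24 for Srebf1 (edgeR adjusted p = 0.0025), 0.19 for Mvk (0.035), 0.54 for Tm7sf2 (0.00021), 0.96 for Nsdhl (5.9e-10), 0.24 for Scd1 (0.0018), 0.38 for Fads1 (1.1e-05) and 0.35 for Fads2 (5.1e-05). Scap was no longer called. Cyp51 (0.15, edgeR adjusted p = 0.031) and Elovl6 (0.21, edgeR adjusted p = 0.006) were called higher only with GC trends removed. Srebf2 (-0.15, edgeR adjusted p = 0.019) and Lss (-0.15, edgeR adjusted p = 0.023) were called lower only with GC trends removed. In this fit the regulators thus had 1 gene higher (Srebf1) and 1 lower (Srebf2).

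**Figure D4:**
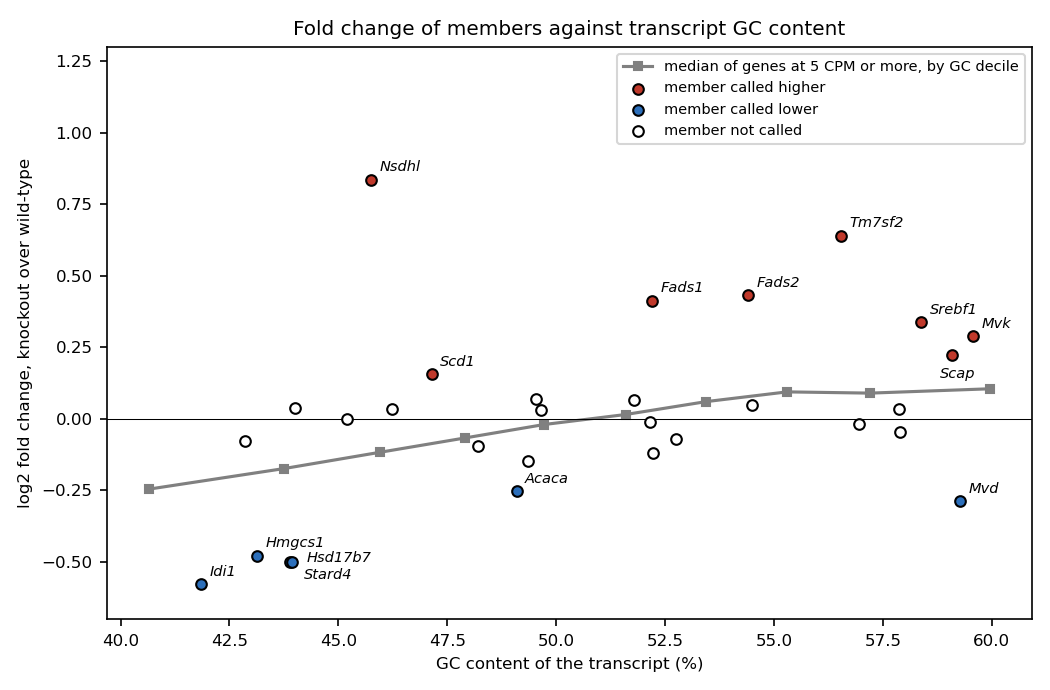
Log2 fold change (knockout over wild-type) of each of the 30 members against the GC content of its transcript in percent, coloured by call, with squares for the median of genes at 5 CPM or more in each GC decile. The decile medians climb from -0.25 to 0.11, Idi1 and Hmgcs1 lie below them at low GC, Mvd lies below them at 59.3% GC, and Nsdhl lies farthest above them.

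**Figure D5:**
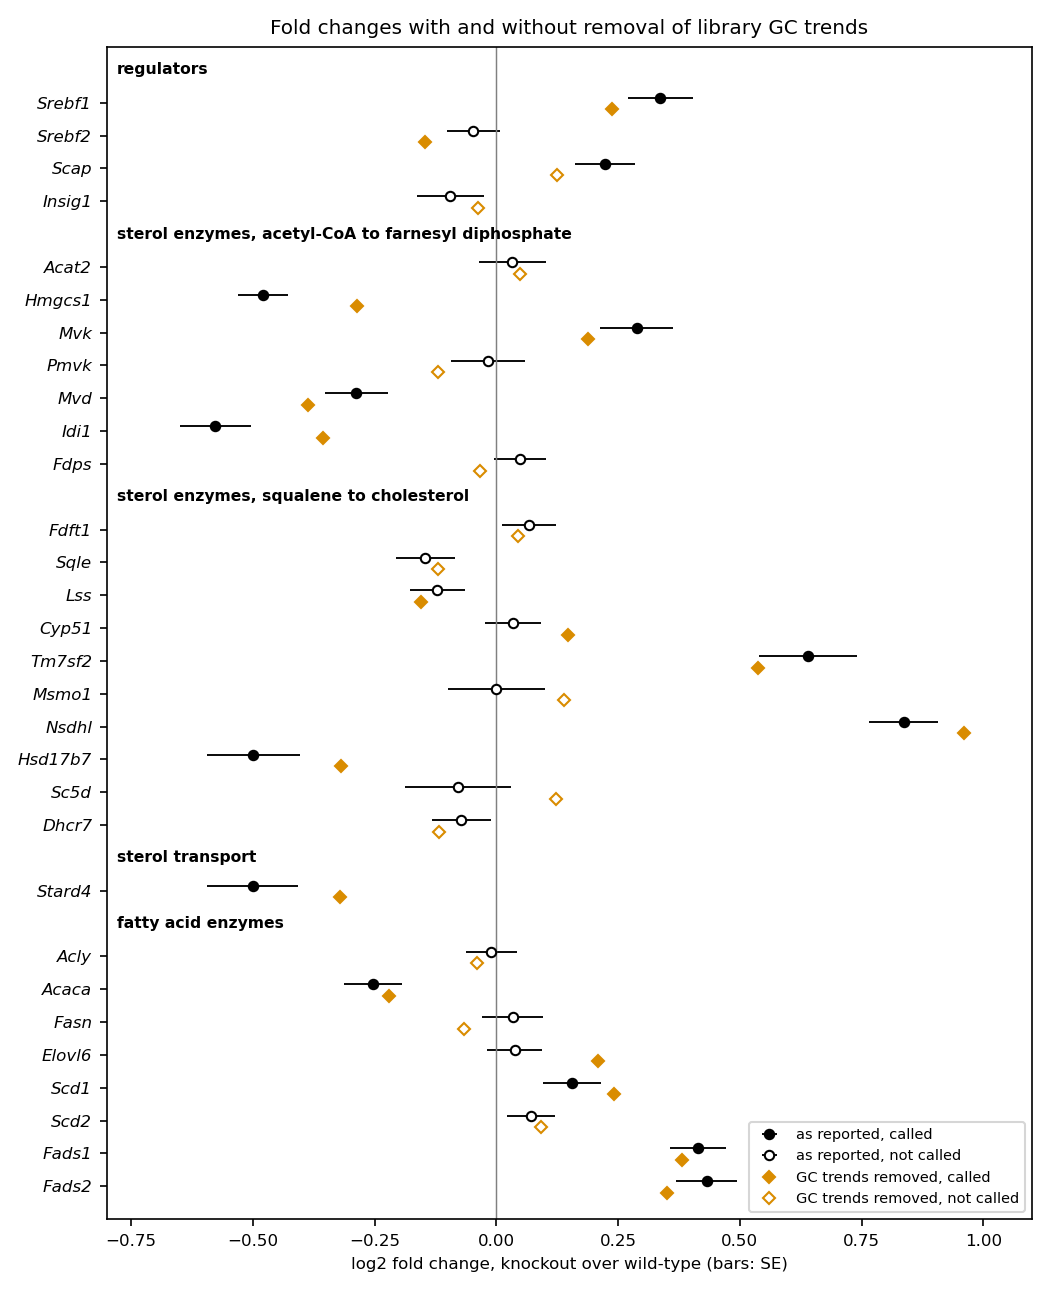
Log2 fold change (knockout over wild-type) of each of the 30 members as reported (circles, bars for the SE) and with library GC trends removed (diamonds, no bars), filled where called. Hmgcs1 moves from -0.48 to -0.29 and Idi1 from -0.58 to -0.36, and both remain called.

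Genes outside the 30 members but on the same routes were read from lists by role. Of 12 tested genes of other sterol and isoprenoid synthesis steps, 4 rose, 3 fell and 5 were not called, with a median log2 fold change of 0.12. These are 58.3% called, against 50.5% of all genes tested, and once GC trends were removed 41.7% against 47.6%. Ebp, the sterol isomerase of the late pathway, had 101, 93.4 and 109 CPM in the knockout libraries against 29.2, 33.7 and 32.4 CPM in the wild-type libraries, without overlap (log2 fold change 1.67 ± 0.073 SE, edgeR adjusted p = 7.4e-13). Ebp is X-linked, and 58 of the 64 genes tested within 5 Mb of it were higher too, with a median of 1.46. Pgrmc1, another X-linked gene, whose product binds cytochrome P450 enzymes, rose by 0.50 on the log2 scale. Of the 30 genes tested within 5 Mb of Pgrmc1, 13 were higher and 5 lower, with a median of 0.24. Acat1, the mitochondrial thiolase, rose by 0.34 and Por, the reductase that feeds electrons to CYP51 and squalene epoxidase, by 0.22 on the log2 scale. Ggps1, the geranylgeranyl diphosphate synthase, fell by 0.61 and Cyb5b, a cytochrome b5, by 0.21. The calls of Por and Cyb5b were lost when GC trends were removed.

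Among 9 tested genes of SREBP processing and turnover, 2 rose, 1 fell and 6 were not called (33.3% called, against 50.5% of all genes tested), with a median of -0.01. Erlin1, which takes part in sterol-regulated degradation at the endoplasmic reticulum, had 12.6, 13.5 and 16.7 CPM in the knockout libraries against 17.5, 19.4 and 18.5 CPM in the wild-type libraries, and fell by 0.40 ± 0.102 on the log2 scale (SE, edgeR adjusted p = 0.003). Erlin1 was the 1 gene of these 9 that was called once GC trends were removed (11.1% called, against 47.6% of all genes in that fit). Among 13 tested genes of sterol efflux and storage, 4 rose, 2 fell and 7 were not called, with a median of 0.14, and the 46.2% called is near the 50.5% of all genes tested. The cholesterol esterification enzymes went opposite ways. Soat1 had 23.1, 24.0 and 26.7 CPM in the knockout libraries against 43.3, 45.7 and 45.4 CPM in the wild-type libraries, and fell by 0.88 ± 0.072 on the log2 scale (SE, edgeR adjusted p = 6.6e-09). Soat2 had 2.89, 2.46 and 1.96 CPM in the knockout libraries against 1.11, 1.12 and 1.22 CPM in the wild-type libraries, and rose by 1.13 ± 0.230 (SE, edgeR adjusted p = 0.00044). Neither pair of groups overlapped. Apoe, the apolipoprotein that carries cholesterol out of cells, rose by 0.51, Npc2, a lysosomal cholesterol carrier, by 0.41 and Scarb1, a lipoprotein receptor, by 0.19, while Mylip, a ubiquitin ligase for lipoprotein receptors, fell by 0.45 on the log2 scale. The call of Scarb1 was lost with GC trends removed or without knockout replicate 2 or wild-type replicate 1 or 2, and that of Mylip without knockout replicate 1.

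Of 25 tested genes of other steps in fatty acid synthesis and elongation, 11 were higher, 1 was lower and 13 were not called, with a median log2 fold change of 0.24. The 48% called is near the 50.5% of all genes tested (26.5% higher and 24% lower). With library GC trends removed 14 were higher and 2 lower (64% called), against 47.6% of all genes (26.8% higher and 20.8% lower). Scd3, a delta-9 desaturase in the same cluster as Scd1 and Scd2, had 190, 285 and 67 counts (9.62, 10.2 and 8.21 CPM) in the knockout libraries, against 17, 2 and 15 counts (0.696, 0.250 and 0.966 CPM) in the wild-type libraries. Every knockout library was far above every wild-type library, with a log2 fold change of 3.74 ± 0.217 (SE, edgeR adjusted p = 4.4e-11), and 93.3% of its 50-base stretches were unique, with Scd1 the gene that shared most of the rest. The part of reads shared with Scd1 in this difference was not tested. Fads3, next to Fads1 and Fads2, had 9.12, 10.8 and 9.92 CPM in the knockout libraries against 4.01, 4.62 and 3.93 CPM in the wild-type libraries, and rose by 1.28 ± 0.133 on the log2 scale (SE, edgeR adjusted p = 1.8e-07). Acacb, the acetyl-CoA carboxylase at mitochondria whose malonyl-CoA holds back fatty acid oxidation, had 64.5, 55.2 and 59.3 CPM in the knockout libraries against 29.4, 29.1 and 28.1 CPM in the wild-type libraries. It rose by 1.04 ± 0.072 (SE, edgeR adjusted p = 5.2e-10), while its paralog Acaca fell. Fads6 rose by 0.73 and X-linked Mid1ip1, which activates acetyl-CoA carboxylase, by 0.71 on the log2 scale, within a region of the X chromosome whose 68 tested genes had a median of 1.44. Elovl7, an elongase, fell by 1.05 ± 0.217 (SE, edgeR adjusted p = 0.0005), at 1.32, 1.46 and 2.45 CPM in the knockout libraries against 3.15, 3.37 and 3.41 CPM in the wild-type libraries.

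Markers of other cell types were read beside these results, with 26.5% of all genes tested higher and 24% lower. Of 10 pluripotency markers 7 rose and 2 fell, with summed levels of 8252 to 8698 CPM in the knockout lines and 7041 to 7172 CPM in the wild-type libraries. Of 19 tested fibroblast markers 3 rose and 11 fell, with a median log2 fold change of -0.43. The sums over the 21 listed were 2873 to 3195 CPM in the knockout against 3148 to 3490 CPM in the wild-type libraries, which overlapped. Only Lum and Fap of this list were under 1 CPM in every library. Of 8 tested primitive endoderm markers 6 rose, with sums of 289 to 334 CPM in the knockout against 253 to 300 CPM in the wild-type libraries. Of 8 tested neural markers 2 rose and 6 fell, with sums of 208 to 218 CPM in the knockout against 263 to 276 CPM in the wild-type libraries. For adipocytes and hepatocytes, both known for strong lipid synthesis, most of the listed markers were near 0. Plin1 and Lep had no counts and Adipoq, Fabp4, Cidec and Retn were under 1 CPM in every library, and the sum of the adipocyte list was 30.1 to 30.6 CPM in the knockout against 14 to 19.1 CPM in the wild-type libraries. Of the 2 adipocyte markers tested 1 rose and 1 was not called, and most of the sum was Adrb3, a beta-adrenergic receptor, with 28.2 to 29.1 CPM in the knockout against 13.1 to 18 CPM in the wild-type libraries. Apoc3 and Serpina1a had no counts, Alb, Afp, Ttr, Apoa1 and Fgb were under 1 CPM, and the sum of the hepatocyte and visceral endoderm list was 16.3 to 20.5 CPM in the knockout against 25.2 to 29.67 CPM in the wild-type libraries. All 3 of its tested markers were called, 2 higher and 1 lower, and Hnf4a had 15, 29 and 9 counts in the knockout libraries and 0 in each wild-type library. The part of cells of these other types in the members' differences was not tested.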

How the data were processed

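The deposited table holds raw counts per gene in 6 poly(A) libraries, not normalized, per the labels and the whole-number values. Per the submitters' processing notes the authors used TopHat2 2.0.11, featureCounts 1.4.5 and mm10, and the options for counting were not given in the sources used here. Of 42290 rows, 902 repeat families were left out of library sizes and tests and held 5.4% to 6.16% of the counts. Another 6 columns, of a repeat run, match no label and were not used.

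Symbols matched 40340 of 41388 identifiers in the GENCODE annotation. Genes were filtered with filterByExpr, scaled by TMM and tested with edgeR 4.0.16 in R 4.3.3 (quasi-likelihood F test, robust, two-sided, no covariate, Benjamini-Hochberg over all 14717 genes, called at 0.05). Levels are TMM-scaled CPM. GC trends were fitted per library with lowess (span 0.3) and removed as offsets. They were fitted to log counts scaled for library size, as deviations from each gene's mean over the libraries. Genes with low mean counts were left out of this trend fit. No pair of libraries within a genotype agreed within sampling noise (chi-square per degree of freedom 2.25 to 20.0), so all 6 were kept as separate samples. The steps were tested on simulated data. Alternatives were DESeq2 1.42.0 and its size factors, limma 3.58.1 voom, library totals, other filters, robust = FALSE, the replicate number as a block, GC removal, autosomal genes only (added after seeing the data) and each library left out. 50-base uniqueness was computed from annotated transcripts.

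The members and lists were chosen with earlier results of these data known. All 30 members are named, and of the other lists up to 5 called genes in each direction with the largest absolute log2 fold change at a mean of at least 1 CPM. Marker lists are given by counts and ranges. Some genes of these lists are counted but not reported here by name.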

Additional observations from a re-analysis of the deposited data

How the results depend on the processing

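Of the 14 called members, 12 kept their call and direction in every alternative that could be fitted (17 settings, or 16 for Nsdhl, which the fit of autosomal genes leaves out). The exceptions were Scap, lost with GC trends removed, with or without the replicate block, and Scd1, lost with the DESeq2 Wald test, with no count filter and without knockout replicate 1 or 2 or wild-type replicate 1 or 2 (highest adjusted p 0.22). Sqle was called lower in 6 alternatives and Insig1 without knockout replicate 3. With GC trends removed, the median log2 fold change of the fatty acid enzymes was 0.15 and the sterol minus fatty acid difference was -0.18. With the replicate block and GC removal together they were 0.15 and -0.17. In that fit 5 of 17 sterol enzymes were higher, beside 4167 of the 14717 genes tested. Msmo1, at -0.00029 and not called without these changes, was called higher there at 0.15 (edgeR adjusted p = 0.049). The acyl-CoA synthetase gene Acsl3 lost its call with GC trends removed (0.0056, adjusted p 0.96). The causes were not tested. The replicate block alone called 4054 genes higher and 3779 lower and, of the members, added Sqle. Deviations of same-numbered libraries correlated at 0.0885, -0.0198 and 0.11, and those of differently numbered libraries at -0.116 to 0.063. Because deviations from a group mean cancel out over its lines, these values cannot settle whether the numbers pair the lines. The numbers were not taken to pair the lines in the results above. Leaving out 1 library at a time gave 3274 to 4146 genes higher and 2844 to 3839 lower, 7 to 8 members higher and 6 to 7 lower, 3 to 3 sterol enzymes higher and 4 to 5 lower, and 2 to 3 fatty acid enzymes higher and 1 to 1 lower. The medians ranged over -0.01 to 0.04 for members, -0.087 to 0.028 for sterol enzymes (-0.087 without knockout replicate 1) and 0.03 to 0.07 for fatty acid enzymes, and the sterol minus fatty acid difference over -0.15 to -0.04. Limits are 3 lines per genotype of unstated relatedness and transcript rather than metabolite levels.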

Other observations

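Of 21 tested genes of glycerolipid synthesis and fatty acid oxidation, 10 rose, 4 fell and 7 were not called (66.7% called, against 50.5% of all genes tested), and their median log2 fold change was 0.14. With library GC trends removed 8 rose and 2 fell, and the 47.6% called was then level with the 47.6% of all genes tested. Fabp3, a fatty acid binding protein, had 399, 378 and 484 CPM in the knockout libraries against 190, 207 and 276 CPM in the wild-type libraries, without overlap (log2 fold change 0.90 ± 0.188 SE, edgeR adjusted p = 0.016). Lpin1, a phosphatidate phosphatase, had 63.1, 71.4 and 57.9 CPM in the knockout libraries against 39.0, 35.7 and 37.9 CPM in the wild-type libraries (0.78 ± 0.075 SE, edgeR adjusted p = 6.3e-08). Cpt1a, which brings fatty acids into mitochondria and is inhibited by malonyl-CoA, had 94.0, 87.8 and 81.4 CPM in the knockout libraries against 53.8, 58.3 and 58.1 CPM in the wild-type libraries (0.64 ± 0.065 SE, edgeR adjusted p = 1.4e-07). All knockout libraries were above all wild-type libraries for these genes. Agpat2, an acyltransferase of glycerolipid synthesis, and Ppard, a nuclear receptor for fatty acids, each rose by 0.41 on the log2 scale.

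Acsl4, an X-linked acyl-CoA synthetase with a preference for arachidonate, had 11.3, 11.8 and 13.3 CPM in the knockout libraries against 23.2, 21.7 and 23.4 CPM in the wild-type libraries. It fell by 0.94 ± 0.090 (SE, edgeR adjusted p = 6.6e-08), in a stretch of the X chromosome where the 25 genes tested within 5 Mb had a median of -0.30. Hadhb, a subunit of the mitochondrial trifunctional protein, fell by 0.37, Fabp5 by 0.23 and Acsl3 by 0.19 on the log2 scale, and the calls of Fabp5 and Acsl3 were lost when GC trends were removed. The call of Fabp5 was also lost without knockout replicate 2, and that of Acsl3 without knockout replicate 1 or 3 or wild-type replicate 1 or 2. Of 5 tested sterol binding proteins set beside Stard4, Osbpl2 rose by 0.20 and Gramd1a fell by 0.20, and the other 3 were not called. These are 40% called, against 50.5% of all genes tested. The call of Osbpl2 was lost when any 1 of the knockout libraries or wild-type replicate 1 or 3 was left out, and that of Gramd1a without wild-type replicate 3.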
